A study of Mus musculus with 45 samples.

Results

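Actc1, Myl1, Tnni1, Myh3, Mylpf and Des encode proteins of the contractile apparatus of muscle, and their RNA was followed here through the differentiation of mouse embryonic stem cells (mESCs) toward spinal sensory interneurons. The 6 genes were chosen by name, and all 6 were found among the 11220 genes of the table the authors deposited. None of the cultures was labelled as muscle.

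A sarcomere contracts when heads of a myosin heavy chain, each carrying an essential and a regulatory light chain, pull on actin filaments, and calcium binding to troponin on those filaments sets this going. Intermediate filaments of desmin tie neighbouring sarcomeres together and to the cell membrane. In the embryo, skeletal muscle comes from the somites, where Pax3 and Pax7 mark its precursors and the factors Myf5, Myod1 and Myog switch on contractile genes. Several of these proteins are not limited to skeletal muscle: Actc1 is the alpha-actin of the heart and is also used by embryonic skeletal muscle, Tnni1 is the slow skeletal troponin I and is present in the embryonic heart, and Des is made in skeletal, cardiac and smooth muscle. Myl1 is an essential light chain, Mylpf the regulatory light chain of fast skeletal muscle, and Myh3 the embryonic myosin heavy chain.

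RNA was sequenced in bulk from 45 libraries in 15 groups of 3, and the design text counts 3 independent differentiations. D0 was undifferentiated mESCs and D3 the progenitor stage labelled NMP (neuromesodermal progenitor), reached under the growth factor bFGF and CHIR, an activator of WNT signalling. From day 3, all later groups received 100 nM retinoic acid (RA). In the R groups it was given alone (R4, R6hr, R5, R7, R9). In the B groups RA for 24 h was followed by 24 h of RA with 10 ng/ml BMP4, a bone morphogenetic protein (B5, B7, B9), and B6hr was taken after 6 h of BMP4. In the M groups both factors were given together for 48 h (M5, M7, M9), and M4 was taken after 24 h of both, so M and B differ in when BMP4 began and in how long it was given. Other numbers in the group names are days, and R6hr and B6hr date from 6 h after day 4. The labels of the day 7 and day 9 groups place their treatment between day 3 and day 5. For later steps, phrases such as under RA alone name that earlier treatment and not factors still present. The labels give the RA interval of the R groups in 2 ways that differ in length. The cell line is not named in the labels.

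Values below are the authors' normalized levels, which carry no unit, and changes are differences of log2(level + 1) tested with limma over all 11220 genes. A change was called where its adjusted p was under 0.05. The authors had listed these genes for a low false discovery rate in these same libraries, which can make adjusted p-values too small. The p-values measure the spread between these libraries, and in bulk RNA fewer cells of a type and less RNA per cell cannot be told apart. The levels summed to between 12245725 and 15868724 per library. A few libraries stood apart from others of their label. Summed over 8 pluripotency genes, D0 replicates 1 and 2 had levels of 14315 and 13104 and replicate 3 had 81542. Over 8 genes of neuromesodermal progenitors, D3 replicate 1 had 59637 and D3 replicates 2 and 3 had 9896 and 9893. Over 12 neuron genes, R7 replicates 1 and 2 had 26247 and 29768 and R7 replicate 3 had 8385. The summed neuron level of D3 replicates 2 and 3 was 31338 and 32833, above all R7 libraries, so marker levels within D0 and D3 did not follow the labels alone.

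Sequence before the start site is printed for Actc1, Myh3, Mylpf and Des. The windows of Myl1 and Tnni1 overlap annotated exons and are not printed. That of Actc1 does so too, and only a stretch outside the exon is printed. The printed stretches of Actc1 and Mylpf lie inside the annotated gene spans given below, because their RefSeq start sites do. The sequences are from RefSeq on GRCm38.p6, written 5′ to 3′ on the strand of the gene, and all 6 genes were matched. They are the 250 bases before the start site for Myh3 (chr11:67078050-67078299, plus strand), Mylpf (chr7:127211358-127211607, plus strand) and Des (chr1:75360042-75360291, plus strand), and bases 100 to 13 before it for Actc1 (chr2:114052888-114052975, minus strand). Capitals mark an E-box (CANNTG, the motif that myogenic bHLH factors such as Myod1 bind) or a CArG box (the motif of serum response factor).
Actc1: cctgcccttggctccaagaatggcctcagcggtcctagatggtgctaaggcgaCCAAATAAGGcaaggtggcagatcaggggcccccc
Myh3: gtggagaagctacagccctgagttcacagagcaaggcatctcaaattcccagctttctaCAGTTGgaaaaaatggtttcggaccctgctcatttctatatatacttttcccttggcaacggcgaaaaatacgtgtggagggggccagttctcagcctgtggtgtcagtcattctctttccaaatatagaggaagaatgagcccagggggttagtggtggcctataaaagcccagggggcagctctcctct
Mylpf: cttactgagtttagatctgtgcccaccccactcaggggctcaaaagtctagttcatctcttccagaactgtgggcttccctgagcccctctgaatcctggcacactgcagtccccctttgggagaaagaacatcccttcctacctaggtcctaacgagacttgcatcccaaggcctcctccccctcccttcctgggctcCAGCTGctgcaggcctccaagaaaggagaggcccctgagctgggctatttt
Des: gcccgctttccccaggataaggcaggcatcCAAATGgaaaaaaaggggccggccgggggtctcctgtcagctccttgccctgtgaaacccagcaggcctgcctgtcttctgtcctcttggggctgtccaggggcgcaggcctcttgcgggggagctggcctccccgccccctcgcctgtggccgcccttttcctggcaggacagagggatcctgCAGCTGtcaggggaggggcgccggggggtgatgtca

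Both strands were searched for these motifs, for the MEF2 site and for TATAAA. The full 250-base windows held E-boxes as follows: 0 in Actc1, 1 each in Myl1, Myh3 and Mylpf, and 2 in Des, while the 2 start sites of Tnni1 had 4 and 2. An E-box was found in 66.2% of 32807 promoter windows of the same length, and at least 2 in 31.8%. The letters CAGCTG were shared by E-boxes of Mylpf (base -51), Des (-36), Myl1 (-224) and both start sites of Tnni1 (-68 and -158). The other E-box of Des, at base -220, was CAAATG. The single CArG box was that of Actc1, and 1.47% of windows held one. A MEF2 site, present in 2.92% of windows, matched in none of the 6 genes. TATAAA occurred in Myh3 and, on the reverse strand, in Myl1, against 12.4% of windows. A match is a description of the letters and not a measured binding site.

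On mm10 with the GENCODE M21 annotation, all 6 are protein-coding genes. Actc1 spans chr2:114047282-114053548, Myl1 chr1:66924295-66945404, Tnni1 chr1:135779434-135810989, Myh3 chr11:67078300-67102291, Mylpf chr7:127208890-127214298 and Des chr1:75360329-75368579. Actc1 and Des overlap genes on the opposite strand (A530058N18Rik and Gm15179) and Myh3 overlaps the miRNA gene Mir6923. Since counting by strand is not stated, reads of these overlapping pairs cannot be told apart. The same holds for reads that Actc1 could share with the near-identical actin Acta1, and Myh3 with the other myosin heavy chains.

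The main change was between day 5 and day 7 under RA alone, when the genes of the thick filament, troponin I and desmin rose and Actc1 was already high. Of the 6 genes, 5 were called higher in R7 than in R5 and 0 lower (5 of the 6 at an unadjusted p under 0.05), where 5.26% of all genes were called higher and 5.97% lower. An unadjusted p under 0.05 was found for 2898 of all 11220 genes, in either direction. The median log2 change of the 6 was 3.55, beside -0.01 for all genes. All 5 calls held when any of the 6 libraries was left out.

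Myh3, the embryonic heavy chain that forms the motor, went from levels of 7.95, 7.07 and 8.55 in R5 to 595, 801 and 357 in R7. The lowest R7 library was far above the highest R5 library. The log2 change was 5.97 ± 0.73 (SE, n = 3 and 3, adjusted p = 2.3e-06), and the mean levels differed 74.4-fold.

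Among the light chains, Myl1 was at 2.83, 10.0 and 8.39 in R5 and at 85.5, 205 and 55.4 in R7. Its log2 change was 3.77 ± 0.53 (adjusted p = 2.5e-05). Mylpf was at 41.5, 42.5 and 21.1 in R5 and at 249, 354 and 474 in R7. Neither light chain had overlapping groups, and replicate 3 of R7 was the lowest library for Myl1 and the highest for Mylpf. The log2 change of Mylpf was 3.34 ± 0.49 (adjusted p = 3.6e-05), or 10.3-fold between mean levels.

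On the thin filament, Tnni1, the troponin subunit that holds contraction off until calcium arrives, had levels of 5.77, 5.84 and 10.2 in R5 and 101, 215 and 60.4 in R7. The 2 groups did not overlap, and the log2 change was 3.78 ± 0.52 (adjusted p = 1.5e-05). Actc1 had levels of 195, 419 and 603 in R5 and 670, 839 and 518 in R7. These overlapped, and the log2 change of 0.85 ± 0.45 was not called (adjusted p = 0.22).

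Des, the intermediate filament protein, was at 154, 154 and 155 in R5 and at 285, 402 and 404 in R7. The groups were separate and the R5 libraries nearly equal. The log2 change was 1.21 ± 0.21 (adjusted p = 0.00034), the smallest of the 5 called.

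**Figure D1:**
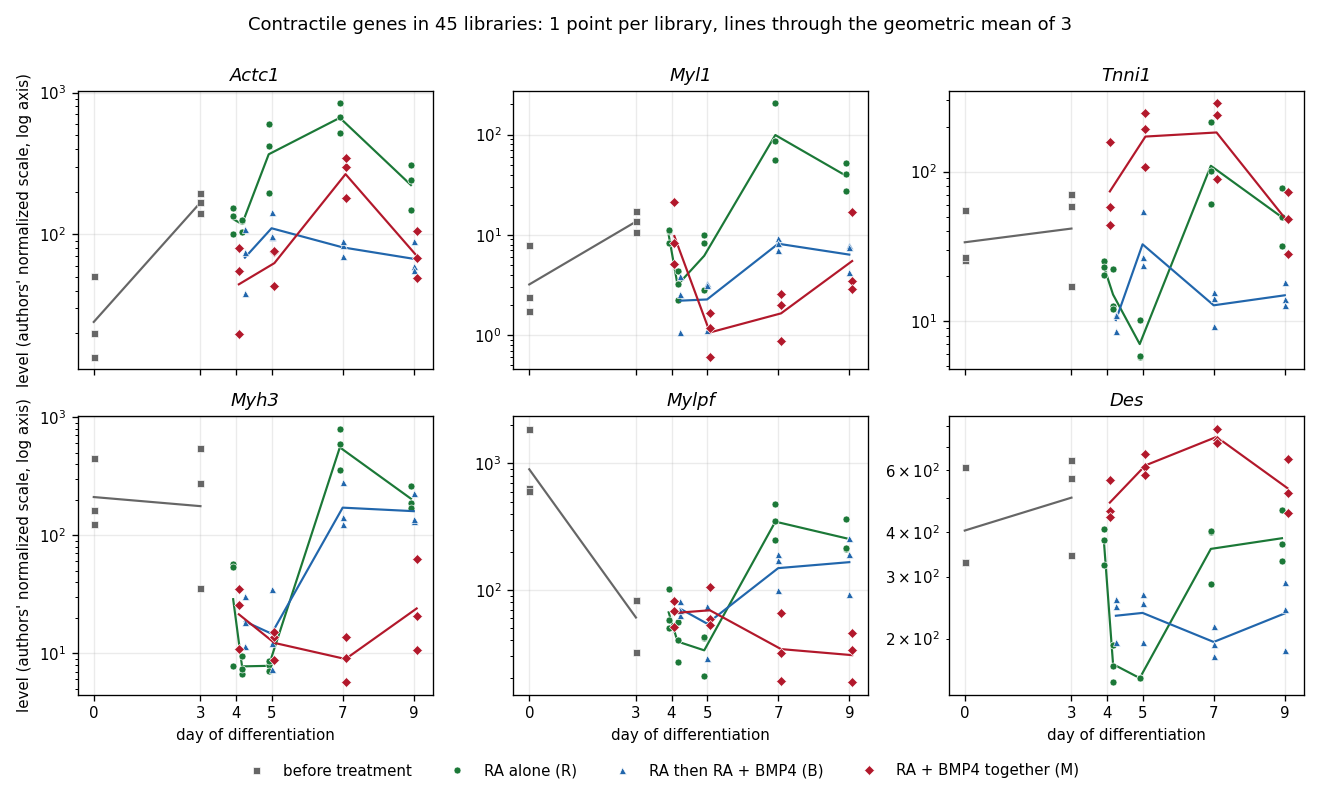
Deposited normalized level (log axis, no unit) of each of the 6 genes in all 45 libraries against the day of sampling, 1 panel per gene, with points for libraries and lines through the geometric means of the 3 libraries of a group. R7 holds the highest mean for Actc1 (676), Myl1 (115) and Myh3 (585), M7 for Tnni1 (205) and Des, and D0 for Mylpf.

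The same step was then compared between the treatments. When BMP4 followed RA, 3 of the 6 genes were called higher in B7 than in B5 and 0 lower (4 of the 6 at an unadjusted p under 0.05), with 15.8% of all genes called higher and 15.4% lower. Unadjusted, 4715 of all 11220 genes were under 0.05 in either direction. Myh3 rose from 34.9, 12.2 and 7.37 to 124, 283 and 142, with no overlap, a log2 change of 3.44 (adjusted p = 0.00057). Myl1 rose by 1.45 (adjusted p = 0.038) and Mylpf by 1.44 (adjusted p = 0.024) on the log2 scale, both to lower levels than in R7. The call for Myl1 was lost without B5 replicate 2 (adjusted p = 0.16) or 3 (0.061) and without B7 replicate 1 (0.064), 2 (0.096) or 3 (0.076), and that for Mylpf without B5 replicate 3 (0.19) or B7 replicate 1 (0.082) or 2 (0.089).

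Tnni1 in the B groups had levels of 54.4, 27.0 and 23.7 at day 5 and 9.20, 14.3 and 15.7 at day 7. Every B7 library was below every B5 library, though the log2 change of -1.29 was not called (adjusted p = 0.056). Quantile normalization gave a called change of -1.61 (adjusted p = 0.0054), and under it the calls for Myl1 (0.096) and Mylpf (0.054) over this step were lost. The change over this step differed between B and RA alone by -5.07 on the log2 scale for Tnni1 (adjusted p = 0.0002) and by -1.48 for Des (adjusted p = 0.0045). These were the 2 genes of the 6 whose difference was called, with 0.713% of all genes called in this direction. For Myl1 the difference of -2.32 was not called (adjusted p = 0.11), and with a pseudocount of 5 it was (-2.35, adjusted p = 0.0088).

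With RA and BMP4 given together, 1 of the 6 genes rose from M5 to M7 and 0 fell (2 of the 6 at an unadjusted p under 0.05), with 7.41% of all genes called higher and 5.12% lower. Over all 11220 genes, 2968 had an unadjusted p under 0.05, in either direction. The gene called was Actc1, at 43.3, 74.3 and 75.8 in M5 and 181, 300.1 and 344 in M7. Every M7 library was above every M5 library, and the log2 change was 2.07 ± 0.45 (adjusted p = 0.0016). Mylpf went from 106, 58.8 and 53.2 to 66.0, 19.0 and 31.7, an uncalled log2 change of -0.99 (adjusted p = 0.19).

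The difference between this step under M and under RA alone was called for 5 of the 6 genes, each time lower under M, where 4.26% of all genes were called lower. It was -6.38 on the log2 scale for Myh3 (adjusted p = 0.0001), -4.33 for Mylpf (adjusted p = 8.4e-05), -3.69 for Tnni1 (adjusted p = 0.0012) and -3.40 for Myl1 (adjusted p = 0.0031). For Des it was -0.94 (adjusted p = 0.037), and that call was lost in 10 of the 12 fits that each left out 1 library (adjusted p up to 0.096), all but those without M5 replicate 3 or R7 replicate 1. The R5 and R7 libraries enter both of these differences, so the B and M results share them.

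**Figure D2:**
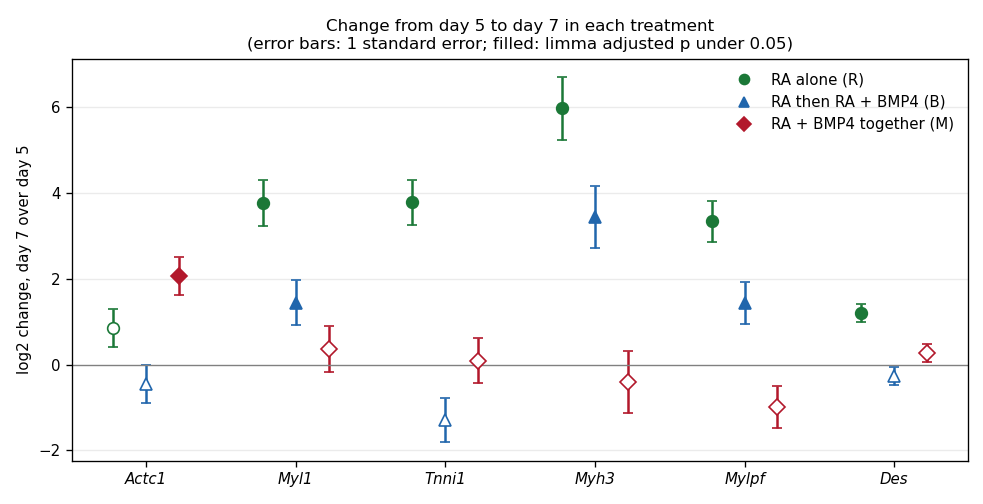
Log2 change of level + 1 from day 5 to day 7 for each of the 6 genes, with 1 symbol per treatment and bars of 1 SE, 3 libraries in each group. Under RA alone Myh3 rose by 5.97 and Myl1, Tnni1 and Mylpf by over 3, while under the combined treatment the change of Actc1, 2.07, was the only one called.

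At day 7 the treatments differed in which of these genes were high. Against R7, M7 had 4 of the 6 genes called lower and 1 higher, with 20.6% of all genes called lower and 22.9% higher. The median log2 change of the 6 was -2.31, beside 0.01 for all genes. Myl1 had levels of 0.875, 1.99 and 2.59 in M7, against at least 55.4 in R7, a log2 change of -5.20 ± 0.53 (adjusted p = 2.7e-09). Myh3 had levels of 5.72, 9.10 and 13.7 in M7, against at least 357 in R7. Its log2 change was -5.80 ± 0.73 (adjusted p = 1.2e-07), and that of Mylpf was -3.30 ± 0.49 (adjusted p = 1.8e-06). The 3 myosin genes were all called lower, and M7 and R7 did not overlap in them. How many of all genes lacked overlap was not counted, so this is a description only.

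Des moved the other way. Its levels in M7 were 733, 789 and 720, all above the highest R7 library, a log2 change of 1.05 ± 0.21 (adjusted p = 0.00014). Tnni1 in M7 was at 88.9, 287 and 240, overlapping R7, and its log2 change of 0.73 was not called (adjusted p = 0.26). Actc1 was lower in M7 by 1.32 on the log2 scale (adjusted p = 0.016), a call that was lost without R7 replicate 2 (adjusted p = 0.067) or M7 replicate 1 (adjusted p = 0.096).

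Sequential BMP4 gave a different day 7 pattern. Against R7, B7 had 4 of the 6 genes called lower and 0 higher (6 of the 6 at an unadjusted p under 0.05), with 11.6% of all genes called lower and 12.1% higher, and all 4 calls held without any library. The unadjusted p was under 0.05 for 4170 of all 11220 genes, in either direction. Myl1 was at 7.03, 9.41 and 8.23 in B7 (log2 change -3.45, adjusted p = 3.3e-05). Actc1 was at 84.2, 70.2 and 88.9 (-3.02, adjusted p = 1.8e-05). Tnni1 changed by -3.00 (adjusted p = 0.00014) and Des by -0.87 (adjusted p = 0.0041), the latter from levels of 218, 179 and 192 in B7.

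For Myh3 and Mylpf the difference was not called. The B7 libraries of both genes lay below all R7 libraries, with Mylpf at 174, 191 and 99.4, and the log2 changes were -1.69 for Myh3 (adjusted p = 0.087) and -1.21 for Mylpf (adjusted p = 0.066). Both were called after quantile normalization, Myh3 with an adjusted p of 0.043 and Mylpf with 0.049, and Myh3 also when the 6 compared libraries were fitted alone (0.043).

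M7 and B7 differed in all 6 genes, 3 higher in M7 and 3 lower, where 21.7% of all genes were called higher and 19.9% lower. No call was lost without any library. The 3 genes higher in M7 were Tnni1 (log2 change 3.74, adjusted p = 1.1e-06, 15.7-fold between mean levels), Des (1.93, adjusted p = 1.8e-08) and Actc1 (1.71, adjusted p = 0.0027). The 3 genes lower in M7 were the myosin genes, Myh3 (-4.11, adjusted p = 4.2e-05), Mylpf (-2.09, adjusted p = 0.00097) and Myl1 (-1.75, adjusted p = 0.0091). M7 enters the comparisons with R7 and B7 and is shared by them.

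**Figure D3:**
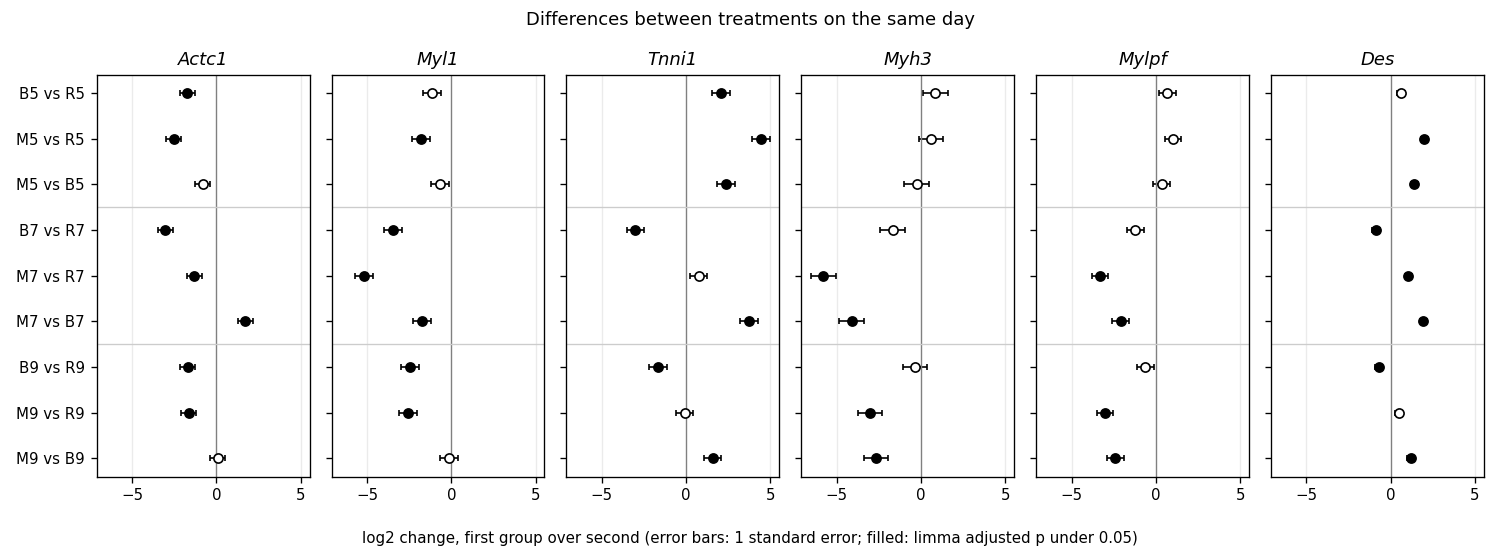
Log2 change of level + 1 between treatments at days 5, 7 and 9 for each of the 6 genes, with bars of 1 SE, 3 libraries in each group, and filled symbols for an adjusted p under 0.05. Myl1, Myh3 and Mylpf lie below 0 in M7 against R7 (-5.20, -5.80 and -3.30), while Des lies above it (1.05) and Tnni1, at 0.73, is an open symbol.

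At day 5, when BMP4 treatment ended, Tnni1 and Des were higher and Actc1 and Myl1 lower under the combined treatment than under RA alone. Against R5, M5 had 2 of the 6 genes called higher and 2 lower, with 21.0% of all genes called higher and 23.3% lower, and the 4 calls held without any library. Tnni1 was at 107, 191 and 248 in M5, against at most 10.2 in R5, a log2 change of 4.42 ± 0.52 (adjusted p = 3.9e-08). Des was at 613, 667 and 583, a log2 change of 2.00 ± 0.21 (adjusted p = 5.7e-09), with no overlap with R5. Actc1 (-2.53, adjusted p = 2.6e-05) and Myl1 (-1.80, adjusted p = 0.0066) were lower in M5. Mylpf (1.03, adjusted p = 0.086) and Myh3 (0.59, adjusted p = 0.54) were not called.

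At day 4, 24 h into the treatments, M4 had 1 of the 6 genes called higher and 1 lower than R4, with 6.76% of all genes called higher and 7.37% lower. Tnni1 was at 158, 44.1 and 57.7 in M4 and at 25.4, 20.4 and 23.0 in R4, with no overlap (log2 change 1.65, adjusted p = 0.028). This call was lost without M4 replicate 1, the high library (adjusted p = 0.2), or R4 replicate 1 (0.056), 2 (0.081) or 3 (0.073). Actc1 was lower in M4, with a log2 change of -1.502 (adjusted p = 0.02), a call lost without M4 replicate 2 (0.25) or R4 replicate 1 (0.058) or 3 (0.083).

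From day 4 to day 5 the treatments parted further. Under RA alone Des fell from 380, 324 and 409 to 154, 154 and 155, a log2 change of -1.25 ± 0.21 (adjusted p = 0.00016) with no overlap. In all, 2 of the 6 genes were called lower in R5 than in R4 and 1 higher, with 5.66% of all genes called lower and 7.09% higher. Tnni1 changed by -1.57 (adjusted p = 0.042), a call lost in each of the 6 fits that left out 1 library (adjusted p up to 0.13). Actc1 rose by 1.51 (adjusted p = 0.023), and that call was lost without R4 replicate 1 (0.061) or 2 (0.089) or R5 replicate 2 (0.079) or 3 (0.18). Myh3 changed by -1.78 (adjusted p = 0.1), and was called without R4 replicate 2, the lowest R4 library (-2.67, adjusted p = 0.023).

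Under the combined treatment 1 of the 6 genes was called lower in M5 than in M4 and 0 higher (2 of the 6 at an unadjusted p under 0.05), where 5.14% of all genes were called lower and 5.22% higher. Unadjusted, 2693 of all 11220 genes were under 0.05 in either direction. Myl1, at 21.5, 5.18 and 8.27 in M4 and 0.610, 1.66 and 1.19 in M5, changed by -2.37 on the log2 scale (adjusted p = 0.0029). Tnni1 changed by 1.21 (adjusted p = 0.14), and without M4 replicate 1 by 1.75 (adjusted p = 0.04). The change over this day differed between M and R for Tnni1 by 2.77 (adjusted p = 0.018) and for Des by 1.60 (adjusted p = 0.00091) on the log2 scale, so 2 of the 6 genes were called with a positive difference, as were 3.54% of all genes. The call for Tnni1 was lost without M4 replicate 3 (adjusted p = 0.055).

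The first sample after BMP4 was added to RA was taken at 6 h. Between B6hr and R6hr, limma called 0 of the 6 genes, with 1 at an unadjusted p under 0.05, and 0.0178% of all genes. The unadjusted p was under 0.05 for 2161 of all 11220 genes, in either direction. For this pair, 0 of the 6 had a false discovery rate under 0.05 in the authors' deposited table. Same-numbered libraries of these groups deviated together, and with the replicate number as a block in a fit of these libraries alone, Myh3 (1.17, adjusted p = 0.035), Mylpf (0.84, adjusted p = 0.026) and Des (0.45, adjusted p = 0.033) were called higher in B6hr. That fit called 10.6% of all genes higher and 15.3% lower. The pairing was chosen from these same levels, which favours a narrower spread, so the blocked calls are no independent support.

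By day 5 the sequential treatment had 1 of the 6 genes called higher and 1 lower than R5, where 2.76% of all genes were called higher and 3.23% lower. Tnni1 was higher in B5 (log2 change 2.07, adjusted p = 0.014) with no overlap. That call was lost without R5 replicate 2 (0.063) or B5 replicate 1 (0.098). Actc1, at 95.9, 96.9 and 143.5 in B5, was lower by 1.73 (adjusted p = 0.017), a call lost without R5 replicate 2 (0.07) or 3 (0.16) or B5 replicate 1 (0.069) or 2 (0.095). Des was at 252, 268 and 196 in B5, all above R5, with an uncalled change of 0.61 (adjusted p = 0.079) that was called without B5 replicate 3 (0.75, adjusted p = 0.043).

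Compared with B5, M5 had 2 of the 6 genes called higher and 0 lower (2 of the 6 at an unadjusted p under 0.05, both higher), with 8.57% of all genes called higher and 9.23% lower. Over all 11220 genes, 3371 had an unadjusted p under 0.05, in either direction. The 2 genes called were Tnni1 (2.36, adjusted p = 0.0015) and Des (1.39, adjusted p = 1.7e-05). The B5 libraries against R4 gave 2 of the 6 genes called lower, with 4.87% of all genes called lower and 5.09% higher. These were Myl1 (-1.72, adjusted p = 0.035), a call that held in 1 of 6 fits with a library left out (adjusted p up to 0.16), and Des (-0.64, adjusted p = 0.049), whose call held in 0 of 6 (adjusted p up to 0.21).

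From day 7 to day 9 under RA alone, Actc1 fell. It was at 241, 309 and 147 in R9, below every R7 library, a log2 change of -1.57 (adjusted p = 0.012) that was not called without R7 replicate 2 (0.051) or R9 replicate 3 (0.085). It was the 1 gene of the 6 called lower in R9 than in R7, with 0 called higher (3 of the 6 at an unadjusted p under 0.05), with 11.1% of all genes called lower and 9.14% higher. An unadjusted p under 0.05 was found for 3739 of all 11220 genes, in either direction. Same-numbered libraries of R7 and R9 deviated together. With the replicate number as a block in a fit of these libraries alone, 5 of the 6 genes were called lower in R9: Actc1 (adjusted p = 6.5e-05), Myh3 (-1.44, 0.0011), Myl1 (-1.34, 0.0032), Tnni1 (-1.13, 0.0033) and Mylpf (-0.44, 0.037). That fit called 20.1% of all genes lower and 15.4% higher. Here too the pairing was chosen from the levels tested, so the added calls are no independent support. Without the block, Myh3 had an adjusted p of 0.16, Myl1 of 0.073, Tnni1 of 0.12 and Mylpf, whose groups overlapped, of 0.57.

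Between treatments at day 9, Actc1 and the myosin genes were lower in M9. Against R9, M9 had 4 of the 6 genes called lower and 0 higher (5 of the 6 at an unadjusted p under 0.05), with 23.5% of all genes called lower and 27.5% higher. Unadjusted, 6370 of all 11220 genes were under 0.05 in either direction. Mylpf was at 33.5, 18.8 and 45.4 in M9 and at 212, 217 and 365 in R9 (log2 change -3.02, adjusted p = 6.8e-06). Myh3 (-3.02, adjusted p = 0.00096), Myl1 (-2.56, adjusted p = 0.0002) and Actc1 (-1.64, adjusted p = 0.0028) were also lower in M9, and the 4 calls held without any library. Des had an uncalled change of 0.47 (adjusted p = 0.063), called with the replicate block (0.039), after quantile normalization (0.042) and without R9 replicate 3 (0.038) or M9 replicate 1 (0.043).

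B9 also had 4 of the 6 genes called lower than R9 and 0 higher (4 of the 6 at an unadjusted p under 0.05), with 5.71% of all genes called lower and 6.12% higher. The unadjusted p was under 0.05 for 3044 of all 11220 genes, in either direction. Of the 4 calls, that for Myl1, at 4.29, 7.92 and 7.58 in B9 and 40.5, 52.5 and 27.1 in R9, held without any library (log2 change -2.42, adjusted p = 0.0035). Actc1 (-1.72, adjusted p = 0.011) was not called without R9 replicate 2 (0.076) or B9 replicate 3 (0.05). Tnni1 (-1.67, adjusted p = 0.032) was not called without R9 replicate 1 (0.065) or 2 (0.17) or B9 replicate 1 (0.058), 2 (0.08) or 3 (0.1). Des (-0.71, adjusted p = 0.027) was not called without R9 replicate 2 (0.07) or 3 (0.14) or B9 replicate 1 (0.15) or 2 (0.055).

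Directly compared, M9 had 2 of the 6 genes called higher than B9 and 2 lower, with 27.8% of all genes called higher and 23.7% lower. Des (1.17, adjusted p = 4.5e-05) and Tnni1 (1.57, adjusted p = 0.012) were higher in M9, and Myh3 (-2.67, adjusted p = 0.0032) and Mylpf (-2.40, adjusted p = 0.00019) lower, the same division as at day 7 for these 4 genes. The call for Tnni1 was lost without M9 replicate 3 (adjusted p = 0.072).

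Within the combined treatment 2 of the 6 genes were called lower in M9 than in M7, where 1.6% of all genes were called lower and 2.4% higher. Actc1 went from 181, 300.1 and 344 in M7 to 49.0, 68.0 and 105 in M9 (log2 change -1.90, adjusted p = 0.011), not called without M7 replicate 3 (0.051) or M9 replicate 1 (0.083). Tnni1 changed by -1.96 (adjusted p = 0.025), not called without M7 replicate 2 (0.13) or 3 (0.092) or M9 replicate 1 (0.16) or 2 (0.061). Same-numbered libraries of M7 and M9 deviated together. With the replicate number as a block in a fit of these libraries alone, Actc1 (adjusted p = 0.023) and Tnni1 (0.029) stayed called. That fit called 186 of 11220 genes higher and 228 lower, and its pairing was again chosen from the levels tested. For Myl1 the change from day 7 to day 9 differed between M and R by 2.64 (adjusted p = 0.02), the 1 gene of the 6 called, where 6.5% of all genes were called with a positive difference. That call was lost without R7 replicate 2 (0.069), M7 replicate 1 (0.057), R9 replicate 3 (0.061) or M9 replicate 3 (0.076). Between B9 and B7 limma called 0 of the 6 genes, with 0 at an unadjusted p under 0.05 and 14.2% of all genes called. Over all 11220 genes, 3168 had an unadjusted p under 0.05, in either direction. The change from B7 to B9 differed from that under RA alone in 0 of the 6 genes (1 at an unadjusted p under 0.05), with 0.098% of all genes called. For this difference 701 of all 11220 genes had an unadjusted p under 0.05.

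The genes were not silent before the treatments. Mylpf had its highest level of all groups in the libraries labelled as undifferentiated (D0), of which replicates 1 and 2 had the lower pluripotency levels given above, at 635, 607 and 1889 against 32.2, 83.8 and 82.7 in D3. In D3 against D0, 2 of the 6 genes were called higher and 1 lower, with 30.9% of all genes called higher and 24.0% lower. The log2 change of Mylpf was -3.87 (adjusted p = 4.7e-08), and without D0 replicate 3 it was -3.33. Actc1 was higher in D3 by 2.74 (adjusted p = 3.8e-06) and Myl1 by 1.74 (adjusted p = 0.0062). Without D0 replicate 3 these were 2.35 and 2.26, and without D3 replicate 1 they were 2.86 and 1.91, all called.

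Myh3 was high and variable at this stage, at 164, 125 and 454 in D0 and 35.8, 278 and 549 in D3, with D3 replicate 1 the lowest. It was the 1 gene of the 6 called in R4 against D3, lower by 2.56 on the log2 scale (adjusted p = 0.0091), with 12.6% of all genes called lower and 11.7% higher. The groups overlapped. The call was lost without D3 replicate 2 (0.058) or 3 (0.12) or R4 replicate 2 (0.13), and without D3 replicate 1 the change was -3.69 and Tnni1 was called too (-1.46, adjusted p = 0.034). In M4 against D3, 2 of the 6 genes were called lower, with 17.7% of all genes called lower and 14.9% higher: Myh3 (-2.99, adjusted p = 0.0019) and Actc1 (-1.89, adjusted p = 0.0013).

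Ordered by mean level over the 15 groups, the 6 genes had different summits. R7 led for Actc1, Myl1 and Myh3, M7 for Tnni1 and Des, and D0 for Mylpf, with R7 next. The highest group mean exceeded the lowest 24.1-fold for Actc1, 99.9-fold for Myl1, 28.2-fold for Tnni1, 74.6-fold for Myh3, 32.0-fold for Mylpf and 4.84-fold for Des. Most neighbours in these orders overlapped: of 14 neighbouring pairs, 13 overlapped for Actc1, Myh3, Mylpf and Des, 12 for Myl1 and 14 for Tnni1. For Myl1 the libraries of R7 were separate from R9, next below, and R9 from D3. For Myh3 the separation fell between B9 and R4, with R7, D3, D0, R9, B7 and B9 above it. For Mylpf it lay between D0 and R7, and for Des between M7 and M5.

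To set the genes beside each other, levels were divided by exon length, which assumes that the deposited levels grow with length; the files do not state this. In R7 the mean level per kb was 418 for Actc1, 338 for Mylpf, 97.0 for Des, 96.5 for Myh3, 55.6 for Myl1 and 34.8 for Tnni1. In M7 the order began with Des (199 per kb) and Actc1 (170), followed by Tnni1 (57.0) and Mylpf (36.6), and Myh3 (1.57) and Myl1 (0.876) came last. In B7 Mylpf led with 146 per kb, ahead of Des (52.3), Actc1 (50.1) and Myh3 (30.3), with Myl1 (3.97) and Tnni1 (3.63) the lowest. The M7 libraries of Tnni1 (± 28.7 SD) and Mylpf (± 22.9 SD) overlapped per kb, so their order there is within the spread.

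The transcription factors of myogenesis gave a mixed picture. Of 18 further regulators of muscle formation in the table, 3 were called higher and 3 lower in R7 than in R5, beside 5.26% and 5.97% of all genes. Their median log2 change was -0.22, beside -0.01 for all genes. Myog, the factor of differentiating myoblasts, went from 3.86, 8.06 and 15.98 to 79.0, 105 and 23.4, with no overlap (log2 change 2.71, adjusted p = 0.0074). Tmem8c, the fusion protein myomaker, went from 2.55, 2.29 and 1.87 to 16.5, 15.99 and 7.70 (2.09, adjusted p = 0.0026). Msc also rose (2.13, adjusted p = 0.011), a call lost without R7 replicate 1 or 2 (adjusted p up to 0.061). Among the lower were Meox2 (-3.08) and Met (-0.79, not called without R5 replicate 1 or R7 replicate 1, adjusted p up to 0.08). Not called were Myod1 (1.36, adjusted p = 0.15), Myf5 (-0.14), Pax3 (-1.04) and Pax7 (-0.30).

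Against R7, M7 had 4 of the 18 regulators called higher (2 without R7 replicate 1) and 7 lower, with a median of -0.81, where 22.9% of all genes were higher and 20.6% lower. Myog in M7 was at 0.419, 0.823 and 1.28 (log2 change -5.03, adjusted p = 2.8e-07). Pax7 (-4.58), Pax3 (-4.16), Lbx1 (-3.76), Myod1 (-2.38), Tmem8c (-2.33) and Myf5 (-1.80) were the others lower in M7. Tcf21 (5.34), a factor of mesenchymal progenitors, was among those higher. Pax3 and Pax7 also mark dorsal neural progenitors. Pax3 in R7 was at 3082, 4084 and 1546, and Myod1 at 9.83, 18.7 and 7.37. The change of Myog from day 5 to day 7 differed between M and R by -3.35 on the log2 scale (adjusted p = 0.019). In B7, 5 of the 18 were called lower than in R7 and 3 higher, beside 11.6% and 12.1% of all genes. Of the lower ones only Lbx1 (-2.34) was called without any 1 of the 6 libraries, and without B7 replicate 1 it was the single lower call. The call for Myog (-1.83) held in 1 of the 6 such fits (adjusted p up to 0.17).

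**Figure D4:**
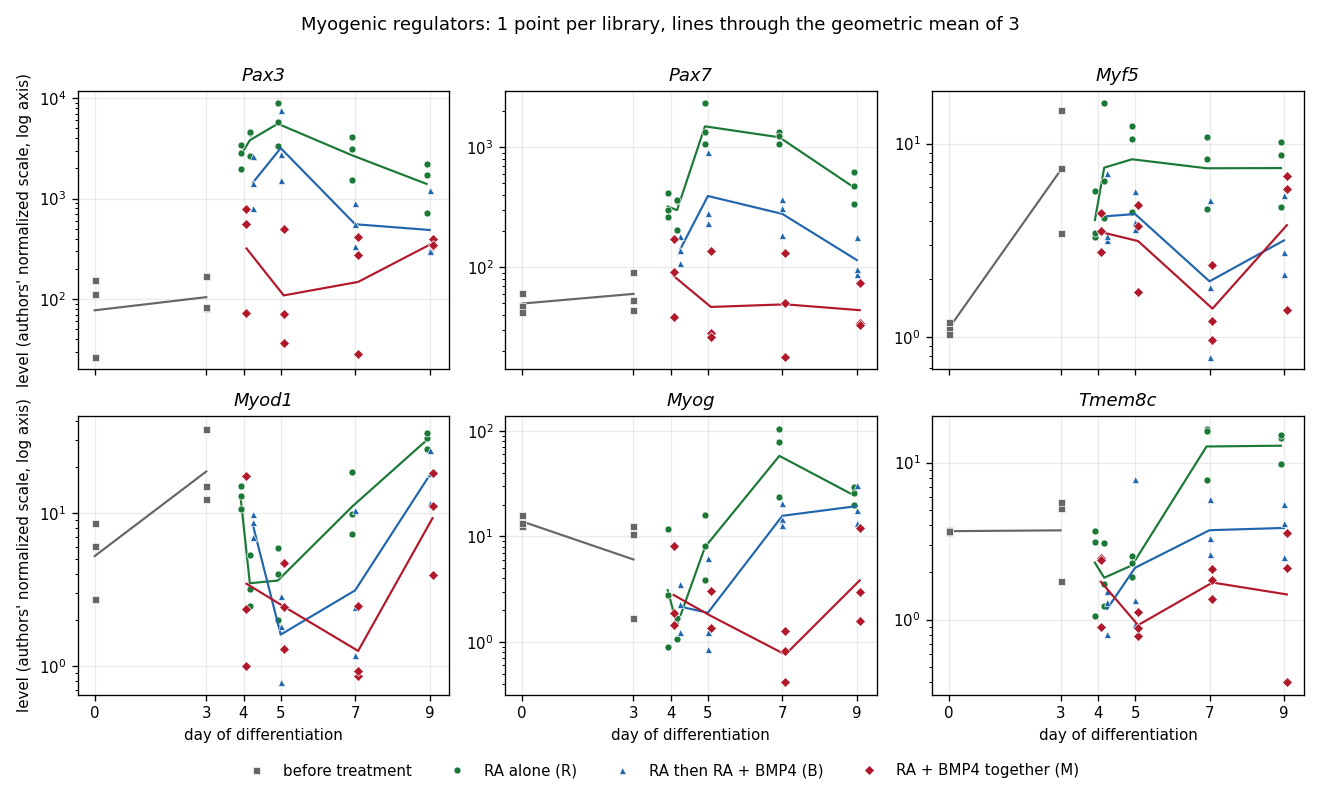
Deposited normalized level (log axis, no unit) of Pax3, Pax7, Myf5, Myod1, Myog and Tmem8c in all 45 libraries by day, drawn as for the contractile genes. Myog reaches 105 in R7 and stays at or under 1.28 in the 3 M7 libraries, while Pax3 reaches 4084 and Pax7 1341 in R7.

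Other genes of the sarcomere and of its coupling to excitation were counted over the same step. Of 43 such genes, 20 were called higher and 0 lower in R7 than in R5, with 5.26% of all genes called higher and 5.97% lower. At an unadjusted p under 0.05, met by 2898 of all 11220 genes, 25 of the 43 were higher and 0 lower. The median log2 change of the 43 was 1.41. Leaving out 1 library gave 17 to 20 called higher. From M5 to M7, 11 of the 43 were called higher and 2 lower (median 0.07), beside 7.41% and 5.12% of all genes. Without M5 replicate 3, 7 were higher. From B5 to B7, 9 were called higher and 1 lower (median 0.49), beside 15.8% and 15.4% of all genes. Without B5 replicate 3, 5 were higher. Neb, the ruler of the thin filament, rose by 5.03 (adjusted p = 2.7e-08), Tnnc2, the fast troponin C, by 4.00 and Acta1, the skeletal actin, by 3.14. In M7 against R7, 20 of the 43 were called lower and 8 higher, beside 20.6% and 22.9% of all genes. The median was -0.97. Tnnc2 (-4.17), Neb (-4.10) and Actn2 (-3.13) were among the lower, and Unc45b, a myosin chaperone (2.81), Fitm1 (1.31), Myom1 (1.13) and Tpm2 (1.09) were higher. Leaving out 1 library gave 18 to 20 lower and 4 to 6 higher, 4 without R7 replicate 3. Myom1 was not called without R7 replicate 3 (adjusted p = 0.063), nor Fitm1 without R7 replicate 2 or M7 replicate 3 (adjusted p up to 0.086). In M9 against R9, 24 were lower (17 without M9 replicate 1) and 3 higher, Tpm1 (1.55), Tpm2 (1.49) and Srl (0.46). Of all genes, 23.5% were called lower there and 27.5% higher.

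Markers of other cells moved in the same comparisons. In R7 against R5, limma called 5.26% of all genes higher and 5.97% lower, and 2898 of 11220 had an unadjusted p under 0.05. Between R5 and R7, 6 of 20 heart muscle genes were called higher and 0 lower (7 and 1 at an unadjusted p under 0.05), among them Myl4 (3.51), Myh6 (2.90) and Myh7 (2.58). Of 12 neuron genes, 5 were higher and 0 lower (7 and 0 unadjusted), led by Stmn2 (2.48), and 2 were higher without R5 replicate 1. Of 15 smooth muscle genes, limma called 0 in either direction (1 higher and 0 lower unadjusted). Of 16 genes of somites and paraxial mesoderm, 0 were higher and 2 lower (0 and 6 unadjusted), Meox1 (-3.43) and Foxc2 (-2.36). The summed neuron level was 4091 to 9670 in R5 and 8385 to 29768 in R7, so the rise of Myh3, Myl1, Tnni1, Mylpf and Des in R7 went with higher neuron markers in R7 replicates 1 and 2 and not in replicate 3. The neuron level was highest in B7 (57063 to 76547), where Actc1, Myl1, Tnni1 and Des were lower than in R7 and Myh3 and Mylpf were not called lower. Their part in the results was not tested.

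In M7 the higher levels of Tnni1, Des and Actc1 against B7 stood beside higher smooth and heart muscle markers. Of 15 smooth muscle genes, 11 were called higher and 0 lower (12 and 0 at an unadjusted p under 0.05). Of 20 heart muscle genes, 11 were higher and 0 lower (11 and 1 unadjusted). In M7 against B7, 21.7% of all genes were called higher and 19.9% lower, and 5501 of 11220 had an unadjusted p under 0.05. Against R7, 12 of 15 smooth muscle genes were called higher in M7 and 0 lower (13 and 0 at an unadjusted p under 0.05). They were led by the pericyte gene Rgs5 (5.499) and Pdgfrb (2.33). Of 20 heart muscle genes, 10 were higher and 3 lower (10 and 6 unadjusted). Against R7, 22.9% of all genes were called higher in M7 and 20.6% lower, and 5655 of 11220 had an unadjusted p under 0.05. Tbx20 (5.07) and Tbx5 (5.05), factors of the heart field, were higher, and the sarcomere genes Myh7 (-3.15) and Myh6 (-2.18), along with Actn2, lower. The summed heart muscle level was 1902 to 2365 in R7 and 7155 to 11477 in M7. The summed smooth muscle level was 6410 to 14186 in R7 and 29271 to 37379 in M7. The lists of sarcomere and heart genes share 6 genes. Whether smooth or heart muscle cells were present, and what part they had in the levels of Tnni1, Des and Actc1, was not tested.

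**Figure D5:**
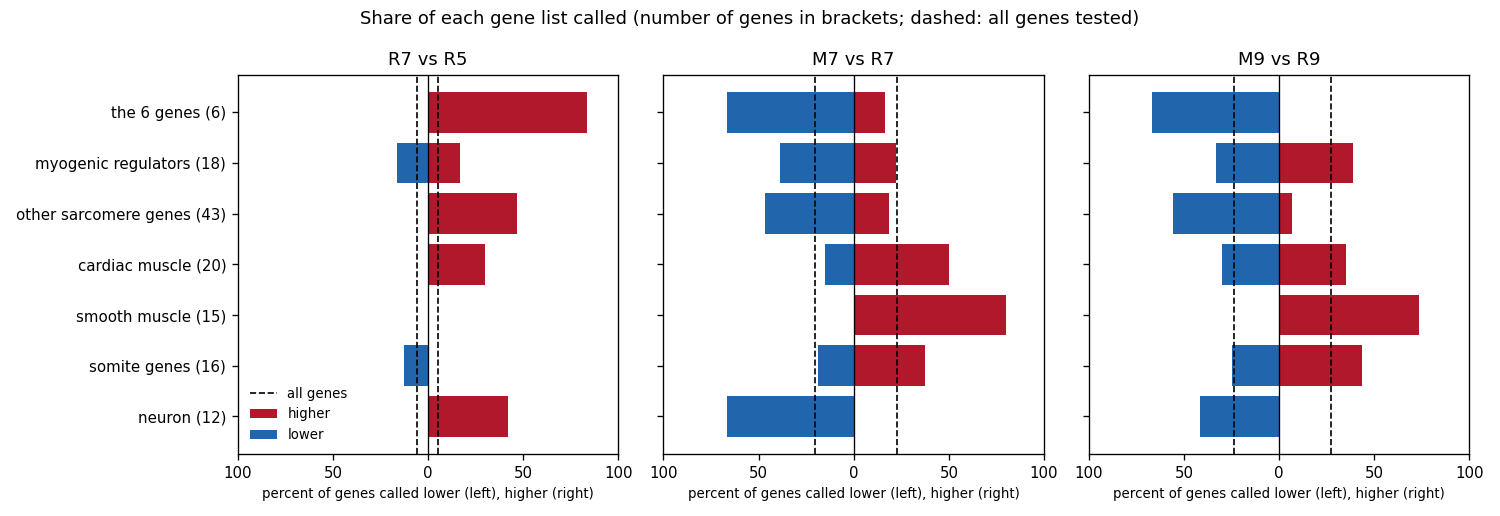
Percent of the genes of each list called higher (to the right) or lower (to the left) in R7 against R5, M7 against R7 and M9 against R9, with dashed lines at the percent of all 11220 genes. In R7 against R5 the sarcomere list has calls on the higher side only (20 of 43), and in M7 against R7 the smooth muscle list has 12 of 15 higher while 20 of the 43 sarcomere genes are lower.

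Over the 45 libraries the 6 genes did not all vary together. Pearson's r of the log2 levels was 0.79 between Tnni1 and Des, 0.78 between Myh3 and Mylpf and 0.69 between Myl1 and Myh3. It was 0.52 between Actc1 and Myl1 and -0.20 between Actc1 and Mylpf. These are descriptions over libraries that share groups, treatments and days. The gene most like the mean of the 6 was Tnnc1, the slow and cardiac troponin C (r = 0.817), followed by Acta1 (0.808). The closest to Myl1 was Cdh15, the cadherin of muscle precursors (0.861), to Mylpf the M-band gene Myom3 (0.887), to Actc1 Habp4 (0.871), to Tnni1 Des itself (0.793) and to Des the desmosomal cadherin Dsg2 (0.823).

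The closest to Myh3 was Gsx1, a homeobox factor of dorsal neural progenitors, with r = 0.957, ahead of Tnnc2 (0.903). Gsx1 was at 0.624, 1.94 and 2.28 in R5, at 331, 286 and 101 in R7 and at 1.75, 1.71 and 5.08 in M7. Like Myh3 it was already present in D0, at 63.5, 68.9 and 252, and in D3 it was lowest in replicate 1, at 21.7 beside 154 and 355.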

How the data were processed

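Bulk RNA of 45 mESC-derived libraries was prepared with a NuGEN mRNA kit and read on a NovaSeq, according to the labels' protocols. The submitters' processing notes name Picard, edgeR and mm10 without saying what each did. Not given in the sources used here are the aligner, counter and annotation. The authors deposited a normalized signal for every gene in every library, called its level here. It has no unit, 0 values are 0 and 1 is a whole number (no tolerance), so it is no count and depth is unknown. The columns that the authors deposited under the heading fpkm hold a score, the level to the power 0.301 times constants, and were left unused. The deposited log2 fold changes and p-values, for 12 comparisons, served as an alternative test. A gene was listed by the authors if its false discovery rate fell below 0.1 in 1 or more of these, so counts over all genes cover only that selection.

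Log2(level + 1) was fitted with limma 3.58.1 in R 4.3.3 (trend, robust) over the 45 libraries together, giving 23 comparisons and 5 differences of effects. A test for counts had been planned and could not be used. P-values were adjusted by Benjamini-Hochberg within each comparison over 11220 genes. Because that list was selected by tests on these same libraries, adjusted p-values can be too small and calls too many. Requiring level 1 in 3 libraries removed 0 genes. The pseudocount of 1 understates changes of low genes such as Myl1. The fit was tested on simulated data: for R7 against R5 over 11220 genes, 200 of them changed, it found 61% of 2-fold and 91% of 4-fold changes and made 8 false calls. The simulated noise was independent between genes and libraries. Shifts shared by many genes of a library were not simulated, so these rates need not hold for the real libraries. The 6 genes, the marker lists and the tests were chosen with earlier results of these data known. List genes are named up to 4 per list and direction, by smallest adjusted p among those called. Some genes that this rule would name are not reported here. The plotted regulators, examples that did not pass and the levels of Gsx1 were chosen after their values were seen. Other settings tried were pseudocounts of 0.1 and 5, quantile normalization, no filter, a replicate block, fits of only the compared libraries, fits without each library and the authors' own deposited test. List counts under these settings were added after seeing the data. Same-numbered libraries were taken as pairs if, in each pair, deviations from the group mean correlated above 0.1. This held for B6hr and R6hr (0.586, 0.189 and 0.465), R9 and R7 (0.506, 0.323 and 0.736) and M9 and M7 (0.254, 0.279 and 0.269). It did not hold in the other comparisons, with values such as -0.328, -0.692 and 0.621 for R4 and D3. The labels do not say what a replicate number marks. Since the rule used the levels that were then tested, a block in the pairs it picked tends to narrow the spread by selection. Figures were drawn with Python 3.11.15 and matplotlib 3.10.9.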

Additional observations from a re-analysis of the deposited data

Results flagged for a closer look

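These results were picked out because the change under 1 treatment differed from that under RA alone by a test of the difference itself (limma, adjusted over all genes). From day 4 to day 5 the change under the combined treatment exceeded that under RA alone by 1.60 on the log2 scale for Des (adjusted p = 0.00091) and by 2.77 for Tnni1 (adjusted p = 0.018). From day 5 to day 7 the combined treatment gave a change lower than RA alone by -6.38 for Myh3 (adjusted p = 0.0001), -4.33 for Mylpf (adjusted p = 8.4e-05), -3.69 for Tnni1 (adjusted p = 0.0012), -3.40 for Myl1 (adjusted p = 0.0031) and -0.94 for Des (adjusted p = 0.037). Over the same days the sequential treatment differed from RA alone by -5.07 for Tnni1 (adjusted p = 0.0002) and -1.48 for Des (adjusted p = 0.0045). From day 7 to day 9 the combined treatment differed from RA alone by 2.64 for Myl1 (adjusted p = 0.02). The R5 and R7 libraries enter 7 of these 10 values, and the R7 libraries the last one too. The call for Des from day 5 to day 7 under the combined treatment was lost in 10 of 12 fits that left out 1 library, that for Tnni1 from day 4 to day 5 in 1 of 12 and that for Myl1 from day 7 to day 9 in 4 of 12.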

How the results depend on the processing

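Results of a gene in a comparison were recomputed where called or changed by at least 0.45 on the log2 scale (125), of which 71 were called and 34 of these were called under every alternative run; 0 called results changed direction. Pseudocounts of 0.1 and no filter lost 0 calls, pseudocount 5 lost 3, quantile normalization 4 (Myl1 and Mylpf in B7 against B5, Tnni1 in R5 against R4 and Des in B5 against R4) and the authors' deposited test 1 of 24, Des in B9 against R9. Leaving out 1 library lost 82 of 486. The uncalled change of Actc1 from M4 to M5 of 0.48 ranged from -0.086 (without M4 replicate 2, a change of sign) to 0.903 (without M4 replicate 1). Quantile normalization moved the median of all genes by over 0.1 only in D3 against D0 (-0.12).

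The number of the 6 genes called ranged, leaving out 1 library, from 0 to 2 in M4 against R4, 0 to 3 in B5 against R5, 1 to 3 in B9 against R9, 0 to 3 in R4 against D3, 1 to 2 in R5 against R4, 0 to 1 in B5 against R4, 1 to 2 in M5 against M4, 1 to 3 in B7 against B5, 0 to 2 in R9 against R7 and 0 to 2 in M9 against M7. For the difference between M and R it was 1 to 2 from day 4 to 5 and 0 to 1 from day 7 to 9. With the compared libraries fitted alone, 0 were called in M4 against R4, B5 against R5, R4 against D3, M4 against D3, B5 against R4, M5 against M4, M9 against M7 and the M and R difference from day 7 to 9, and 2 in R9 against R7. Pseudocount 5 gave 1 in B5 against R4 and 2 in R9 against R7, and quantile normalization 1 and 3, and 2 in the M and R difference from day 7 to 9.

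The replicate block over all libraries lost 0 of 71 calls. With the replicate block in the compared libraries alone 28 of 71 were lost. That fit called 0 in M4 against R4, B5 against R5, B7 against R7, R4 against D3, M4 against D3, R5 against R4, B5 against R4, M5 against M4, R7 against R5 and the M and R difference from day 7 to 9. It called 1 in the M and R difference from day 4 to 5 and in the B and R difference from day 5 to 7, 3 in B6hr against R6hr and in M7 against M5, and 5 in R9 against R7. The cause of these shifts was not tested; a fit of 6 libraries with a block has few residual degrees of freedom. Depth per library is unknown, so no counting limit can be given for low genes such as Myl1, and with 3 libraries a group smaller changes than those called may be missed.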
